A study of Mus musculus with 30 samples.

Results

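The comparison set 12 h against 4 h in cultured mouse extraocular muscle (EOM), the striated muscle that moves the eye. Its members were the 12 arrays titled 12 hour EOM or 4 hour EOM, of 30 in the series: 3 arrays of the A type and 3 of the B type at 12 h, against 3 of each type at 4 h. Both times are one material in the labels, cultured EOM of the mouse, and no strain, age, sex, treatment or medium is given for either. What happened at 0 h is not stated, nor is it stated whether the replicates came from different cultures or whether same-numbered A and B arrays shared RNA. The p-values therefore describe the spread among arrays, and that spread may be technical. An array type carries its own set of probe sets, each a group of probes for a transcript, and each type was scaled and tested apart. Intensities below are the deposited values, and a difference is log2(intensity + 16) at 12 h minus that at 4 h, with its standard error, from 3 arrays a time. A difference was called where its limma p-value, adjusted by Benjamini and Hochberg over all probe sets tested on that type, was under 0.05.

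Muscle fibre markers were measured at high intensity on all 6 A arrays. Myog, a transcription factor of muscle differentiation, had intensities of 12355.7, 12603.4 and 10516.1 at 12 h, against 12920.7, 6218.9 and 11586.7 at 4 h. The summed intensity of the 11 muscle fibre markers tested ran from 66996.5 to 89423.3 at 12 h and from 50379.2 to 77780.5 at 4 h, so the groups overlapped, and 4 h replicate 2 gave the lowest sum. Of 12 genes listed for extraocular muscle, 4 were tested on the A arrays, and Myh6, Tbx1, Hoxa5 and Hoxd13 lay below the filter on dim probe sets there. Eya1, a regulator active in eye muscle, averaged an intensity of 119 at 12 h and 156 at 4 h, near the cut of 101 that the filter set. Over both array types 7 of the 12 were measured, none was called, the median difference was -0.34, and the lowest was that of Alcam (-0.84), the 1 member lower at an unadjusted p under 0.05. The EOM myosin Myh13 was not analysed here. Of all genes, each with 1 probe set, 55.6% had a positive difference. Of 12 fibroblast markers 6 were measured over both types, 4 with a negative difference, none was called, and the median was -0.45. Their range was -0.91 (Pdgfra, B type) to 0.27 (Col1a2), with 1 lower at an unadjusted p under 0.05. The 4 of them on the A type summed to 4253.3 to 5378.4 at 12 h and 4505.5 to 4589.9 at 4 h. Their part in the results was not tested. On the A arrays Pdgfra, Col1a1, Dcn and Lum were below the filter, as were Pecam1 and Cdh5 of endothelium and Ptprc and Cd68 of leukocytes. In bulk RNA, fewer cells of a type and less RNA per cell cannot be told apart.

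Arrays of one time were not equally alike. Across the probe sets tested, A array 12 h replicate 3 correlated less with the mean of the other 12 h arrays (0.972) than with the mean of the 4 h arrays (0.982). On the B type 12 h replicate 3 also correlated less with its own time (0.902) than with the other (0.911), as did 4 h replicate 2 (0.905 with its own time and 0.914 with the other). The mean of an array's own time left out that array and so held fewer arrays, which by itself can lower that correlation. The ratio of 3' to 5' signal for the Gapdh control probe sets on the A type averaged 0.80 ± 0.05 in 12 h arrays, against 0.84 ± 0.04 in 4 h arrays (SD, n = 3 each), with overlap. On the B type it was 0.83 ± 0.02 at 12 h and 0.78 ± 0.02 at 4 h, with no overlap. For Actb the A type gave 1.05 ± 0.05 at 12 h and 1.11 ± 0.02 at 4 h, and the B type 1.09 ± 0.04 at 12 h and 1.07 ± 0.02 at 4 h. The part of these ratios in the results was not tested.

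The 3 largest called falls, and several others, were of genes from a pair of known programs. The aryl hydrocarbon receptor (AHR) is a transcription factor that planar aromatic ligands activate. With its partner ARNT it binds a short DNA core, the xenobiotic response element (XRE), and switches on the cytochrome P450 genes of the CYP1 family together with its own repressor. NRF2, encoded by Nfe2l2, is a transcription factor that oxidants and electrophiles stabilise, and it acts through antioxidant response elements on genes of glutathione and thioredoxin metabolism.

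The 250 bases before the transcription start are shown for 5 called genes. Of these, 3 are AHR genes, 1 is an antioxidant gene and 1 a gene of the endoplasmic reticulum. They do not stand for those groups, since other called antioxidant and reticulum genes lacked the marked letters. Sequences and positions are from RefSeq, mouse build GRCm38.p6, written on the strand of the gene. Cyp1a1 lies at chr9:57697363-57697612 on the plus strand, Cyp1b1 at chr17:79715062-79715311 on the minus strand, Ahrr at chr13:74292332-74292581 on the minus strand, Gclm at chr3:122245307-122245556 on the plus strand and Creld2 at chr15:88819396-88819645 on the plus strand. Capitals mark the XRE core GCGTG or its reverse complement CACGC in the first 3 sequences, the antioxidant response element core TGACNNNGC or its complement in Gclm, and the endoplasmic reticulum stress element, in reverse complement, in Creld2.
Cyp1a1: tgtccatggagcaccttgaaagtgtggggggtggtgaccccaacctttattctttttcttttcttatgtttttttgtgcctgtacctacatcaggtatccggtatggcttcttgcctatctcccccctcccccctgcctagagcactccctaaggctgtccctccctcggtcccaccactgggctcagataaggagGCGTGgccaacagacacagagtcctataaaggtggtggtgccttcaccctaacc
Cyp1b1: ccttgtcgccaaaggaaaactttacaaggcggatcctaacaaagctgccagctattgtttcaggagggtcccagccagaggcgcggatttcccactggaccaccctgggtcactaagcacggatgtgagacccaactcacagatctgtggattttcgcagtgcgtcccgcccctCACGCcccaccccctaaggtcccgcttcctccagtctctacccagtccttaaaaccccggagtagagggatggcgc
Ahrr: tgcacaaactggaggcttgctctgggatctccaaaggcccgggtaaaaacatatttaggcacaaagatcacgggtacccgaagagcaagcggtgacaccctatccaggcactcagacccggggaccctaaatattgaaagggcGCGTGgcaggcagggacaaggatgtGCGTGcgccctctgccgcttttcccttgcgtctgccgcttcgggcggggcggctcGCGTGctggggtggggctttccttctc
Gclm: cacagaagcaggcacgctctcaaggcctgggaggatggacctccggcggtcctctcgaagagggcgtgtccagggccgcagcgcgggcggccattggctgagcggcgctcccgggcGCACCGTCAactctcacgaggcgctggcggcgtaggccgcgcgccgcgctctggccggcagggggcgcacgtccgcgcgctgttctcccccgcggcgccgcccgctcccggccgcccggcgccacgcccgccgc
Creld2: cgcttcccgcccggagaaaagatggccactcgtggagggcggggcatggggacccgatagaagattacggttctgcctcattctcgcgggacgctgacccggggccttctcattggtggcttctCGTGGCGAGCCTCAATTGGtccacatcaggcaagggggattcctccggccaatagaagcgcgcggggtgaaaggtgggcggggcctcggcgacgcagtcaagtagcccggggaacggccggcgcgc

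Among 32851 such windows of all mouse genes in the table, 28.2% held the XRE core on either strand, 10.2% the antioxidant core and 0.113% the stress element. Of the 35 called genes 31 matched the table. The XRE core was in 22 of 30 windows of the genes that fell (73.3%) and in 5 of 12 windows of those that rose (41.7%), where a gene with several starts has several windows. Counted by gene, the core was in 17 of 22 that fell and in 5 of 9 that rose. It is 5 letters long and holds a CpG, and base composition was not matched. The 28.2% is a share of windows over all genes in the table, not only those tested here. No share by gene over all genes was taken, so the counts by gene have no background. The antioxidant core was in 3 of 30 windows of falling genes, and the stress element was in none of those and in 1 of 12 windows of rising genes, that of Creld2. Nqo1 had neither the XRE core nor the antioxidant core in its window. Srxn1 had no antioxidant core, Txnrd1 had it in 1 window only, and Sdf2l1 had no stress element. The Gclm window also held 3 XRE cores, which are not marked above. A match is a description of letters and not evidence of binding.

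Of 13577 A array probe sets tested, 40 were called (0.295%), 12 higher at 12 h (0.0884%) and 28 lower (0.206%). They stood for 12 genes that rose and 23 that fell, with 1 falling probe set that had no single gene symbol. In each of the 40 the 3 values at 12 h did not overlap the 3 at 4 h, which was so for 16.9% of all probe sets tested. An unadjusted p under 0.05 was reached by 1562 probe sets (11.5%), 4.65% higher and 6.86% lower. Of 13507 B array probe sets, 1 was called (0.0074%), and 1029 had an unadjusted p under 0.05 (7.62%), 3.75% higher and 3.86% lower. The median standard error of a difference was 0.179 on the A and 0.266 on the B type.

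The A array calls depended on single arrays. With 12 h replicate 3 left out 173 probe sets were called, 36 of them among the 40. With 12 h replicate 1 or 2 left out the counts were 9 and 6, and without 4 h replicate 1, 2 or 3 they were 5, 13 and 11. One probe set each of Cyp1a1, Cyp1b1, Gclc, Gclm and Igfbp3 was called in all 6 of these fits, 35 lost the call in at least 1, and no difference changed sign. For each called gene the highest adjusted p over the 6 fits is given below beside the main one.

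Cyp1a1 fell by 2.23 ± 0.22 on the log2 scale, the largest called difference of the comparison. This monooxygenase, encoded on chromosome 9, oxidises polycyclic aromatic hydrocarbons and is the most used readout of AHR activity. Its intensities were 361.8, 342.5 and 174.1 at 12 h, against 1493.9, 1361.5 and 1250.8 at 4 h, so that every 12 h value lay far below every 4 h value and the lowest was 12 h replicate 3 (limma adjusted p = 0.000195, highest with an array left out 0.00376). The 12 h mean was 0.214 of the 4 h mean.

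Cyp1b1, a related monooxygenase found mostly outside the liver, had 556.6, 825.2 and 455.8 at 12 h, against 1903.5, 1540.1 and 1795.8 at 4 h. The groups stood apart and the gene fell by 1.52 ± 0.18 (adjusted p = 0.000945, at most 0.0149 with an array left out). A second A probe set for it gave a difference of -1.24 ± 0.28 (adjusted p = 0.0759).

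Ahrr, which encodes the repressor that competes with AHR for its partner, had 130.9, 112.9 and 69.3 at 12 h, against 216.3, 302.6 and 312.5 at 4 h. It fell by 1.30 ± 0.24 (adjusted p = 0.0295, up to 0.137 with an array left out). Tiparp, an ADP-ribosyltransferase that also restrains AHR, had 869.4, 732.6 and 835.7 at 12 h, against 1341.3, 1227.9 and 1388 at 4 h, with no overlap, and fell by 0.69 ± 0.13 (adjusted p = 0.0295, up to 0.166). A second Tiparp probe set fell by 0.80 (adjusted p = 0.0434).

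Nqo1, a quinone reductase known to respond to both AHR and NRF2, had 1332.7, 1447.5 and 1211.8 at 12 h, against 2328, 2119.5 and 2450.2 at 4 h. It fell by 0.78 ± 0.16 with no overlap (adjusted p = 0.045), and the call was lost whichever array was left out (adjusted p from 0.0557 to 0.189). The receptor gene Ahr itself did not pass (difference -0.81 ± 0.18, adjusted p = 0.0751), although its values of 903, 754.4 and 733.5 at 12 h all lay below the 1253.2, 1657.9 and 1340 at 4 h. Its partner Arnt (0.10 ± 0.22) and the aldehyde dehydrogenase Aldh3a1 (-0.24 ± 0.25) did not pass and overlapped.

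In all, 5 of the 8 measured AHR genes fell and none rose, where 0.144% of 12542 genes, each with 1 probe set, were called lower and 0.0957% higher. Their median difference was -0.80, beside 0.03 over all genes. The number called fell to 2 when any 4 h array, 12 h replicate 1 or 12 h replicate 2 was left out, and was 4 without 12 h replicate 3.

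The rate-limiting enzyme of glutathione synthesis, glutamate-cysteine ligase, fell in both subunits. Gclc, the catalytic subunit, had 1065.5, 705.8 and 1003.3 at 12 h, against 2216.6, 2102.8 and 2116.8 at 4 h. Gclm, the modifier subunit, had 789, 688.6 and 740 at 12 h, against 1814.3, 1490.4 and 1879.4 at 4 h. Neither overlapped, Gclc fell by 1.22 ± 0.17 (adjusted p = 0.00564, at most 0.047 with an array left out) and Gclm by 1.20 ± 0.15 (adjusted p = 0.0016, at most 0.0179). A second Gclc probe set fell by 1.07 ± 0.16 (adjusted p = 0.00877, up to 0.0697 with an array left out).

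Srxn1, sulfiredoxin, which restores oxidised peroxiredoxins, had 550.2, 439.5 and 528.5 at 12 h, against 1082, 1122.8 and 984.9 at 4 h. It fell by 1.05 ± 0.16 (adjusted p = 0.00877, up to 0.0674 with an array left out), with no overlap. Of its 3 other A probe sets 2 gave differences of -0.84 and -0.69 and the third 0.0019.

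Txnrd1, thioredoxin reductase, was read by several A probe sets. One of them, drawn in the plot of xenobiotic and antioxidant genes, had 185.1, 219.4 and 233 at 12 h, against 383.2, 394.1 and 443.4 at 4 h, and fell by 0.89 ± 0.15 (adjusted p = 0.0188, up to 0.114 with an array left out). Another called probe set fell by 0.82 (adjusted p = 0.0285), and the brightest, which stands for the gene in the counts, gave -0.54 ± 0.11 (adjusted p = 0.0628).

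**Figure D1:**
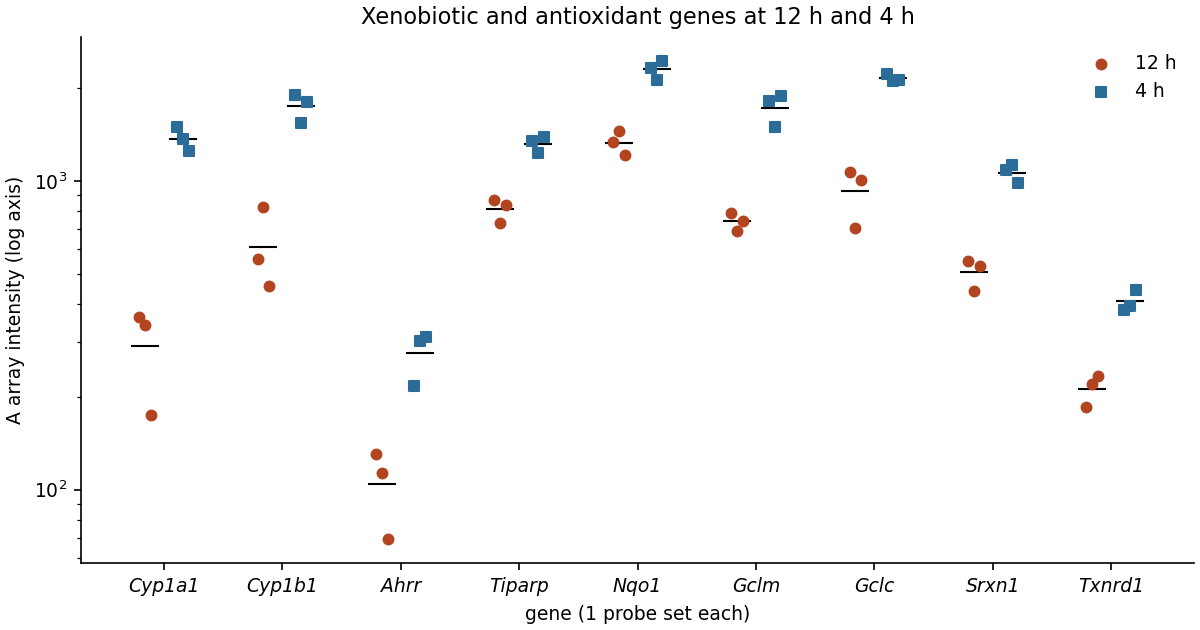
Deposited A array intensity (log axis) of 9 genes in the 3 arrays at 12 h (circles, left) and the 3 at 4 h (squares, right), with bars at the means. All 12 h points of each gene lie below its 4 h points, and Cyp1a1 is spread widest at 12 h, with 174.1 in replicate 3.

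Hmox1, heme oxygenase, had 433.2, 536.3 and 325.8 at 12 h, against 1083.8, 778.6 and 864.3 at 4 h, and did not pass in spite of the gap (difference -1.06 ± 0.29, adjusted p = 0.145). The metal-binding metallothioneins Mt2 (-1.19 ± 0.26, adjusted p = 0.0714) and Mt1 (-0.87 ± 0.24, adjusted p = 0.147) did not pass either, nor did Nfe2l2, the gene of NRF2 itself (-0.39 ± 0.11, adjusted p = 0.147). Of 21 measured genes of the NRF2 and antioxidant list, 4 were called lower by the probe set that stands for each (Gclc, Gclm, Srxn1 and Nqo1), 5 by any probe set, and none was called higher. At an unadjusted p under 0.05 the list had 12 lower and 0 higher, where 4.9% of all genes were lower and 5.33% higher. Its median difference was -0.39. Differences near 0 came from the superoxide dismutases Sod1 (-0.11) and Sod2 (0.05), Cat (-0.08) and Gpx1 (0.14). On each A array the list took much the same place: relative to its mean over the 6 arrays, the median member lay at -0.16, -0.20 and -0.17 (log2) at 12 h, against 0.21, 0.22 and 0.24 at 4 h. Array 12 h replicate 3 was no exception here.

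Igfbp3 had the largest called rise of the comparison and was the only gene called on both array types. It encodes a secreted protein that binds insulin-like growth factors and alters their access to receptors. Its gene is on chromosome 11. On the A arrays its intensities were 478.4, 265.1 and 734 at 12 h, against 132.1, 109.1 and 72 at 4 h. The groups were apart but the 12 h values were spread widely. Igfbp3 rose by 2.00 ± 0.29 (adjusted p = 0.00651, at most 0.0392 with an array left out), and with only the 4 h and 12 h arrays in the fit its adjusted p was 0.0906. On the B arrays another probe set had 2593.1, 2736.5 and 3160.3 at 12 h, against 1230.6, 1362.1 and 1118.1 at 4 h, a rise of 1.18 ± 0.15 (adjusted p = 0.0152, up to 0.104 with an array left out).

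Ccn2, connective tissue growth factor, a matrix-associated protein induced by TGF-beta and by mechanical load, had 1678.5, 2101 and 902.8 at 12 h, against 449.6, 565 and 556.5 at 4 h. Its 12 h replicate 3 was the closest to the 4 h values without reaching them, and the gene rose by 1.47 ± 0.27 (adjusted p = 0.0295, up to 0.166 with an array left out). The related Ccn1 had a difference of 0.88 ± 0.21 that did not pass (adjusted p = 0.0949). In the list of Id proteins and BMP or TGF-beta targets, Ccn2 was the 1 called of 21 measured members. Of the 21, 16 had a negative difference, 2 were higher and 6 lower at an unadjusted p under 0.05, and the median was -0.22. Over all genes 55.6% of differences were positive.

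Pdlim2, a PDZ and LIM domain protein bound to the actin cytoskeleton, had 503.5, 749.8 and 1005.3 at 12 h, against 289.6, 416.6 and 273.5 at 4 h, and rose by 1.14 ± 0.21 (adjusted p = 0.0295, up to 0.138 with an array left out). Cnn2, an actin-binding calponin, had 5811.7, 5867.2 and 5716.7 at 12 h, against 3378.1, 3739.4 and 3746.3 at 4 h. These 12 h values were nearly equal, and Cnn2 rose by 0.68 ± 0.10 (adjusted p = 0.00877, up to 0.0697). Lrig1, a membrane protein that lowers ErbB receptor signalling, had 364.7, 539.3 and 400.8 at 12 h, against 161.8, 201.5 and 197.7 at 4 h, and rose by 1.14 ± 0.19 (adjusted p = 0.0166, up to 0.0976). Its other A probe sets gave 0.58 ± 0.22 (adjusted p = 0.309) and 0.013 ± 0.24 (adjusted p = 0.99) and were not called.

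The feedback inhibitors of receptor and ERK signalling, a list that does not hold Lrig1, had none called of 21, 6 higher and 1 lower at an unadjusted p under 0.05, and a median difference of 0.40. Its largest positive differences were those of Errfi1, an ErbB inhibitor (0.89 ± 0.23, adjusted p = 0.119), and Spry1, an inhibitor of growth factor signalling (0.85 ± 0.22, adjusted p = 0.12). The lower member was Rgs4, a regulator of G protein signalling (-1.09 ± 0.50, adjusted p = 0.412). Notch3, a Notch receptor of vascular smooth muscle and muscle precursor cells, had 582.6, 574.1 and 519.1 at 12 h, against 336.2, 261.5 and 320.1 at 4 h. It rose by 0.84 ± 0.16 without overlap (adjusted p = 0.0373, up to 0.171 with an array left out). A dimmer A probe set for Notch3 gave 0.24 ± 0.35 with overlap and was not called (adjusted p = 0.846). Notch3 was the only called member of 14 in the Notch list. In that list Hey1, a Notch and BMP target, had a difference of -1.17 ± 0.41 with overlapping values (adjusted p = 0.271).

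Notch3 is also one of 10 measured smooth muscle and pericyte markers. Of these 9 had a positive difference, beside 55.6% of all genes, and 4 had an unadjusted p under 0.05. The summed intensity of the 9 on the A arrays was 19780 to 25038.9 at 12 h and 15636.9 to 22462.1 at 4 h. Myh11, Cnn1, Kcnj8 and Abcc9 were below the filter there. Without A 12 h replicate 3, 2 of the 9 on the A arrays were called higher and the median was 0.35. With any other 12 h or 4 h A array left out none was called. Their part in the Notch3 and Ccn2 results was not tested.

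**Figure D2:**
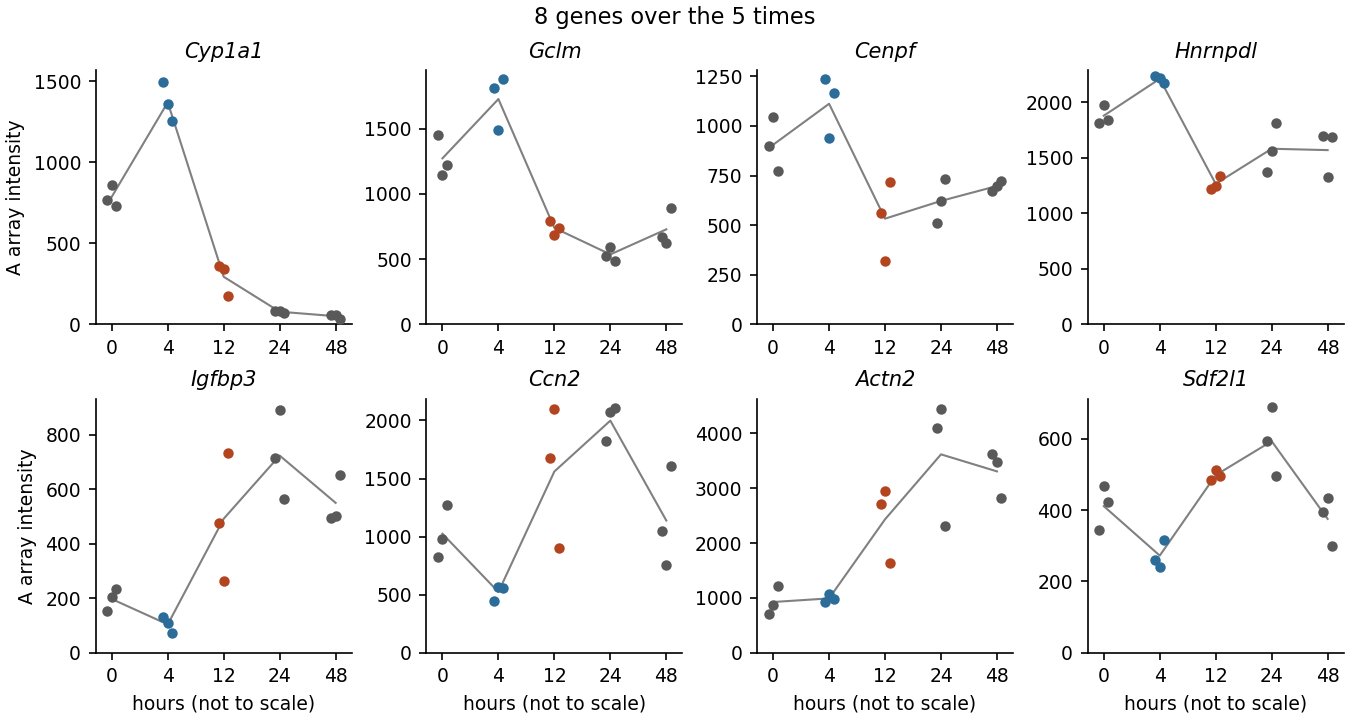
Deposited A array intensity of 8 called genes at 0, 4, 12, 24 and 48 h, with points for the 3 arrays of a time (4 h blue, 12 h red), a line through the means and vertical axes that start at 0. The upper row holds genes that fell and the lower row genes that rose between 4 and 12 h, and the Cyp1a1 mean is lower still at 24 h (77.4) while the Hnrnpdl mean is not.

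The other times show where 4 and 12 h stand in the series, as a description, since the calls used the 4 and 12 h values. In the 28 probe sets that fell, the mean at 4 h was the highest of the 5 times in 25, the mean at 12 h was below that at 0 h in all 28, and the mean at 24 h was lower still in 19. Cyp1a1 averaged 787 ± 66.3 at 0 h, 1369 ± 122 at 4 h, 293 ± 103 at 12 h, 77.4 ± 4.9 at 24 h and 49.7 ± 13.3 at 48 h (SD, n = 3). In the 12 that rose, the mean was lowest at 4 h in 7 and higher at 24 h than at 12 h in 11. Both sets were chosen by their 4 and 12 h values, which by itself favours an extreme mean at 4 h. The same counts over all probe sets tested were not taken.

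Genes of the sarcomere, the contractile unit of striated muscle, had mostly positive differences, and 1 passed. Myh7, the slow and cardiac myosin heavy chain, had 507.8, 734.2 and 502.1 at 12 h, against 295.1, 251.5 and 216.1 at 4 h, and rose by 1.13 ± 0.22 (adjusted p = 0.0382, up to 0.191 with an array left out). Of 26 sarcomere genes 10 were higher and 0 lower at an unadjusted p under 0.05, and the median was 0.38. Those just short of it included Myh8, the perinatal myosin (1.06 ± 0.26, adjusted p = 0.1), and Tnnc2, fast troponin C (0.86 ± 0.21, adjusted p = 0.1). Actin and cardiac actin, already among the brightest, had small differences that did not pass (Acta1 0.24 ± 0.14, Actc1 0.11).

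Actn2, the alpha-actinin that anchors thin filaments at the Z-disc, had 2711.8, 2956.5 and 1635.2 at 12 h, against 918.1, 1074.6 and 985.1 at 4 h. It rose by 1.24 ± 0.25 with no overlap (adjusted p = 0.0434, up to 0.209 with an array left out). Its call and that of Myh7 were each lost in 9 of 15 alternatives. Among these were median scaling, no filter, no intensity trend and the fit of only the 4 h and 12 h arrays. Of 34 genes of the Z-disc, M-band and titin-linked list 1 was called, 10 were higher and 0 lower at an unadjusted p under 0.05, and the median was 0.45. Myoz2, a calcineurin-binding Z-disc protein, had 1249.8, 1374.9 and 972.2 at 12 h, against 610.3, 668.9 and 569.4 at 4 h, but did not pass (0.93 ± 0.21, adjusted p = 0.0714). In the muscle energy list none of 19 passed, 10 were higher and 0 lower at an unadjusted p under 0.05, and the median was 0.39; Mb, the oxygen store myoglobin (0.99 ± 0.28, adjusted p = 0.157), and Pgam2, a muscle glycolytic enzyme (1.00 ± 0.28, adjusted p = 0.156), were among them.

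Muscle genes followed single arrays. The median member of the Z-disc list lay at 0.44, 0.45 and -0.14 on the 12 h arrays (log2, relative to its mean over the 6 A arrays), against 0.04, -0.48 and -0.12 at 4 h. Replicate 3 at 12 h thus lay within the 4 h values and replicate 2 at 4 h below all others, and the sarcomere list did the same. The energy list lay at 0.45, 0.47 and -0.07 at 12 h, against -0.12, -0.24 and -0.13 at 4 h, so its 12 h replicate 3 was above the 4 h arrays but near them. Without 12 h replicate 3 the number called became 6 of 23 sarcomere members on the A arrays, 3 of 27 of the Z-disc list and 3 of 19 of the energy list. With any other of the 6 arrays left out it was 0 in each, and without 4 h replicate 2 the medians were 0.23, 0.27 and 0.31.

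**Figure D3:**
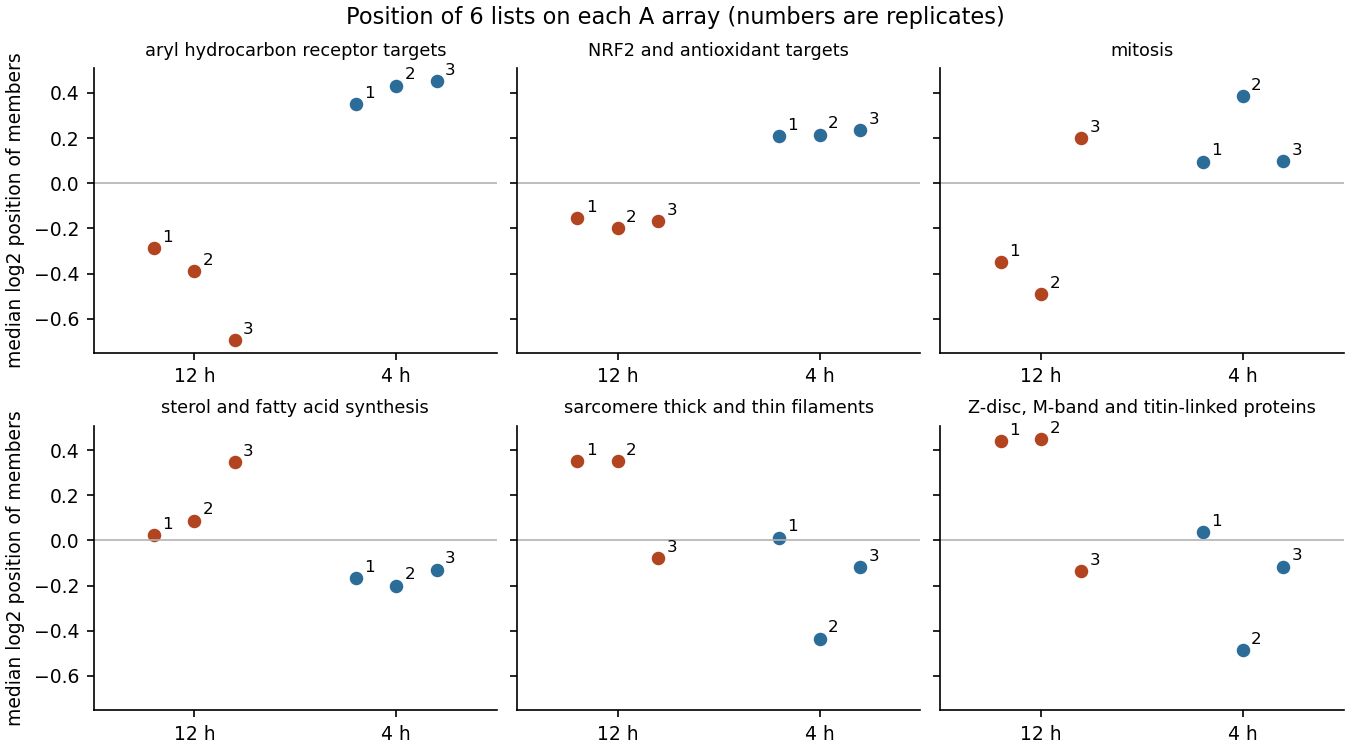
Position of 6 gene lists on each A array: the median over a list's members of log2(intensity + 16) minus its mean over the 6 arrays, with 12 h left and 4 h right and the replicate number beside each point. The AHR and antioxidant lists separate the times on every array, whereas for the mitosis, sarcomere and Z-disc lists 12 h replicate 3 lies among the 4 h arrays.

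All 42 measured genes of the mitosis list had a negative difference, with a median of -0.43, 20 had an unadjusted p under 0.05 and 1, Cenpf, was called. Over all genes 55.6% of differences were positive. Cenpf, a kinetochore protein of dividing cells, had 563.3, 317 and 716.8 at 12 h, against 1234.8, 936.8 and 1163.5 at 4 h, and fell by 1.10 ± 0.22 without overlap (adjusted p = 0.0434, up to 0.214 with an array left out). A second A probe set for it gave -0.17. Ckap2, a spindle protein that was not in the list, had 650.6, 488.9 and 1042.7 at 12 h, against 1419.9, 1769.3 and 1589.4 at 4 h, and fell by 1.18 ± 0.22 (adjusted p = 0.0295, up to 0.169).

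Mki67, the proliferation antigen Ki-67, had 1306.5, 574.3 and 1819.5 at 12 h, against 2671.7, 2084.3 and 2253.8 at 4 h, with no overlap, and did not pass (-1.05 ± 0.28, adjusted p = 0.13). Members of one list share their arrays, and here too 12 h replicate 3 was apart: the median mitosis member lay at -0.35, -0.49 and 0.20 at 12 h, against 0.10, 0.39 and 0.10 at 4 h. Without 12 h replicate 3, 12 of 41 members on the A arrays were called lower, Mki67 among them, and the median was -0.62. With any other of the 6 arrays left out none was called, and without 4 h replicate 2 the median was -0.26.

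None of 46 DNA replication genes was called, 26 had a positive difference, and 2 had an unadjusted p under 0.05, both lower. The median of 0.06 was close to that of all genes, of which 55.6% had a positive difference. The median over the A array members was -0.07 without 12 h replicate 3 and 0.15 without 4 h replicate 2. No test of the mitosis list against the replication list was made.

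Most genes of cholesterol synthesis had a positive difference. Dhcr7, which makes cholesterol in the last step of its pathway, had 792.3, 873 and 956.1 at 12 h, against 548.8, 433.5 and 445.9 at 4 h. The groups did not overlap and Dhcr7 rose by 0.86 ± 0.15 (adjusted p = 0.0283, up to 0.112 with an array left out). Of 28 genes of sterol and fatty acid synthesis 25 had a positive difference, beside 55.6% of all genes. At an unadjusted p under 0.05, 10 were higher and 0 lower, and the median was 0.30. Sqle, squalene epoxidase, had 2762.5, 2987.6 and 3415.4 at 12 h, against 2158.5, 2100.3 and 2027.9 at 4 h, and did not pass (0.54 ± 0.12, adjusted p = 0.0759). Lss, which closes the sterol ring (0.66 ± 0.18, adjusted p = 0.147), Fdps (0.50 ± 0.12, adjusted p = 0.111) and, on the B arrays, the sterol sensor partner Insig1 (0.50 ± 0.13, adjusted p = 0.282) gave like differences. The fatty acid genes Fasn (0.18) and Acaca (-0.06) and the desaturase Scd1 (0.21) were nearer 0. The list was highest on 12 h replicate 3, with a median position of 0.35 beside 0.02 and 0.09 on the other 12 h arrays, against -0.17, -0.20 and -0.13 at 4 h, so this array took the opposite place to the one it had for muscle genes. Without it 1 of 27 members on the A arrays was called, 7 were higher at an unadjusted p under 0.05, and the median was 0.23. With any other 12 h or 4 h A array left out none was called.

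Genes that act in or at the endoplasmic reticulum were among the rises. Sdf2l1, a partner of the reticulum chaperones, had 485.8, 512.2 and 496.3 at 12 h, against 260.9, 241.4 and 315.5 at 4 h. Creld2, a reticulum stress protein whose promoter is shown above, had 843.7, 741.1 and 808.9 at 12 h, against 485.8, 501 and 434.2 at 4 h. Both groups stood apart, and Sdf2l1 rose by 0.84 ± 0.17 (adjusted p = 0.0434, up to 0.187 with an array left out) and Creld2 by 0.73 ± 0.14 (adjusted p = 0.0295, up to 0.159).

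Ube2g2, a ubiquitin-conjugating enzyme of reticulum-associated degradation that was in no list used here, had 1549.3, 1579 and 1227.9 at 12 h, against 883, 925.6 and 978.9 at 4 h, and rose by 0.63 ± 0.13 (adjusted p = 0.0455, up to 0.22). Of 22 reticulum chaperone genes 2 were called, 6 were higher and 0 lower at an unadjusted p under 0.05, and the median was 0.18. The abundant chaperones did not pass: Hspa5, or BiP, had a difference of 0.18 ± 0.10, and Hsp90b1 and Calr of 0.0022 and 0.16.

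**Figure D4:**
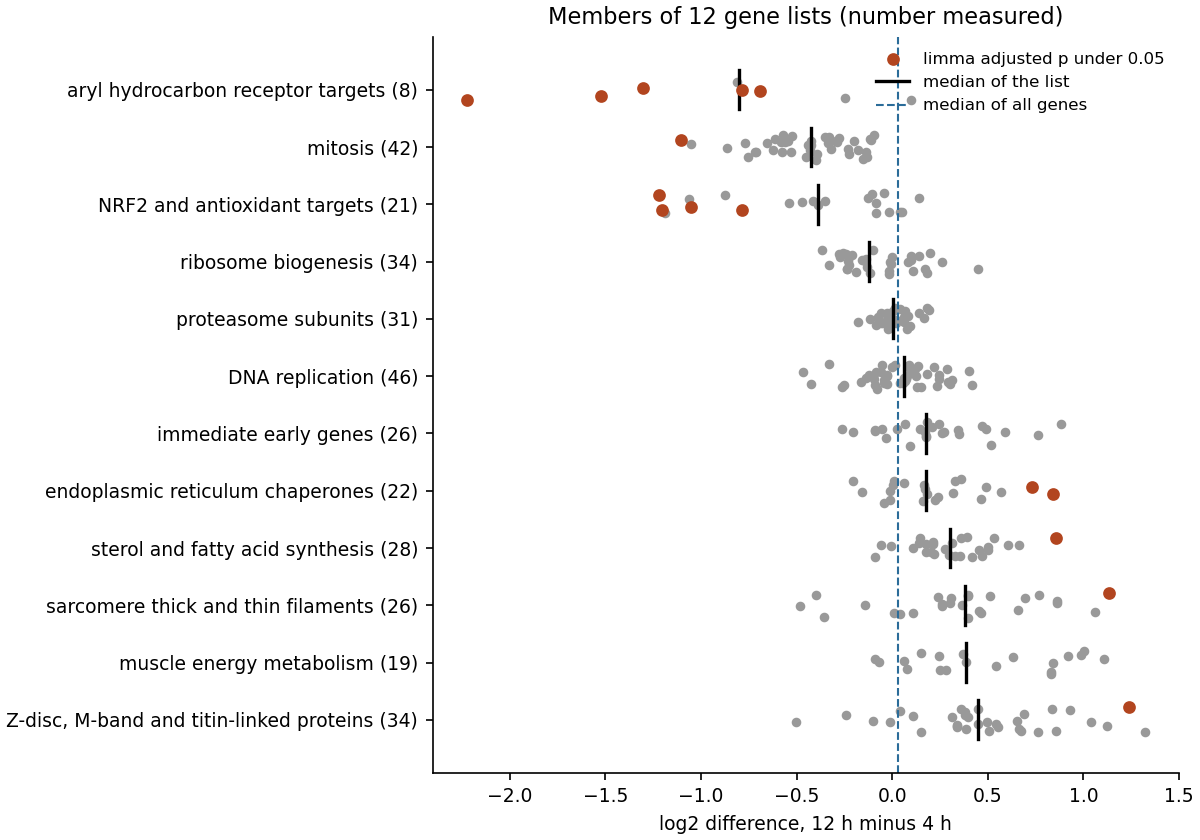
Log2 difference, 12 h minus 4 h, of the measured members of 12 gene lists, 1 probe set per gene, with the list median as a black bar, called members in red and the median of all genes (0.03) dashed. AHR, mitosis and NRF2 members lie to the left, from -2.23 for Cyp1a1, and sterol and muscle members mostly to the right.

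Genes of RNA binding and splicing were among the falls. Hnrnpdl, a heterogeneous nuclear ribonucleoprotein, had 1217, 1242.9 and 1336.4 at 12 h, against 2238, 2222.6 and 2174.5 at 4 h. The arrays of each time were close together, and Hnrnpdl fell by 0.80 ± 0.13 (adjusted p = 0.0107, up to 0.0697 with an array left out), with a second A probe set also called. Its 4 other A probe sets gave -0.92, -0.44, -0.29 and -0.28 and were not called, the last 2 with an unadjusted p of 0.303 and 0.304. Syncrip, another such protein, had 509.7, 437.3 and 559.2 at 12 h, against 811.1, 890.3 and 874.2 at 4 h, and fell by 0.76 ± 0.12 (adjusted p = 0.0136, up to 0.086). Its 3 other A probe sets gave -0.34, -0.34 and -0.29 and were not called (unadjusted p from 0.0622 to 0.11).

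Ptbp2, a splicing regulator best known in neurons, had 769.2, 653.7 and 899 at 12 h, against 1512.2, 1389.3 and 1570.9 at 4 h, and fell by 0.94 ± 0.18 (adjusted p = 0.0295, up to 0.169). A second A probe set for Ptbp2 gave -0.29 ± 0.22 with overlap and was not called (adjusted p = 0.669). Cirbp, the cold-inducible RNA-binding protein, had 549.5, 322.4 and 568.4 at 12 h, against 988.7, 1014 and 890.4 at 4 h, and fell by 1.02 ± 0.18 (adjusted p = 0.0275, up to 0.114). On the probe sets whose intensities are given, none of the 4 overlapped. No list of RNA-binding proteins was used, and these genes were grouped here after their values were seen.

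Further falls were in metabolism and signalling. Pdk4, the kinase that shuts pyruvate out of mitochondrial oxidation, had 405.2, 301.6 and 588.3 at 12 h, against 1010.9, 880 and 926.5 at 4 h, and fell by 1.14 ± 0.19 (adjusted p = 0.0149, up to 0.0841 with an array left out). It was the only called gene of 23 in the FOXO, atrophy and glucocorticoid list, where the ubiquitin ligase genes differed in sign, with Fbxo32 at -0.67 and, on the B arrays, Trim63 at 1.04. Glcci1, a glucocorticoid-induced transcript, had 58.3, 63.7 and 97.1 at 12 h, against 200.9, 200.4 and 192.1 at 4 h, and fell by 1.29 ± 0.24 (adjusted p = 0.0295, up to 0.159). These intensities are among the lowest called, and the pseudocount of 16 understates such differences.

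Rgs17, which shortens G protein signals, had 346, 218.4 and 320 at 12 h, against 697.3, 502.3 and 840.1 at 4 h, and fell by 1.16 ± 0.23 (adjusted p = 0.0373, up to 0.182). Nfkb2, a subunit of NF-kappaB, had 247.8, 251.6 and 264.6 at 12 h, against 403.7, 441.2 and 448.1 at 4 h, and fell by 0.72 ± 0.13 (adjusted p = 0.0218, up to 0.112). A second A probe set for Nfkb2 gave -0.12 ± 0.31 with overlap and was not called (adjusted p = 0.919). Nfkb2 was the only called gene of 15 in the cytokine and innate immune list. Its partner Relb (-0.65 ± 0.22, adjusted p = 0.266) and the inhibitor Nfkbia (-0.45 ± 0.11, adjusted p = 0.0979), both NF-kappaB targets themselves, did not pass.

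Vcan, the matrix proteoglycan versican, had 309.4, 352.4 and 463 at 12 h, against 603.2, 759.3 and 656.4 at 4 h, and fell by 0.83 ± 0.16 (adjusted p = 0.0313, up to 0.189). Chpf2, which builds chondroitin chains, fell by 0.85 ± 0.16 (adjusted p = 0.0295, up to 0.122). Atp1b1, the beta subunit of the sodium pump, fell by 0.60 ± 0.12 (adjusted p = 0.048, up to 0.207), and Ypel5 fell by 0.81 ± 0.16 (adjusted p = 0.0434, up to 0.159). The last 2 lost the call whichever array was left out. Another A probe set for Ypel5 gave -0.13 ± 0.22 with overlap and was not called (adjusted p = 0.865). The matrix gene Smoc2 had a larger gap, with 26.6, 112.1 and 103 at 12 h, against 348.2, 454.5 and 346.8 at 4 h, but did not pass (-2.19 ± 0.47, adjusted p = 0.0613).

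The B arrays held separate probe sets for 8 of the genes called on the A arrays, and all 8 differences had the A array's sign, 6 of them at an unadjusted p under 0.05. Over the 2090 genes tested on both types 60.4% had the same sign. Gclm on the B arrays had 726.8, 481.8 and 548.9 at 12 h, against 1772.9, 1166.6 and 1463.6 at 4 h (-1.30 ± 0.22, adjusted p = 0.0733). Rgs17 had 735.3, 747.4 and 694.8 at 12 h, against 1472.2, 1452.3 and 1552.2 at 4 h (-1.02 ± 0.16, adjusted p = 0.0722). These values do not overlap, which the rule for naming B genes required, and neither passed on that type. The differences for Chpf2 (-0.05 ± 0.39) and Vcan (-0.16 ± 0.42) were near 0 with wide errors.

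For the 100 probe sets tested on both types the differences correlated across probe sets at r = 0.742 and rho = 0.689, as a description, since probe sets are not independent and A and B arrays may hold the same RNA. On the A type itself 30 further probe sets of 16 called genes were tested, 29 of them had the called sign, 17 an unadjusted p under 0.05 and 4 passed. Of all A probe sets tested 11.5% had an unadjusted p under 0.05. The further probe sets read the called genes on the same arrays, so their signs are not independent of the calls. The exception in sign was the Srxn1 probe set given above.

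**Figure D5:**
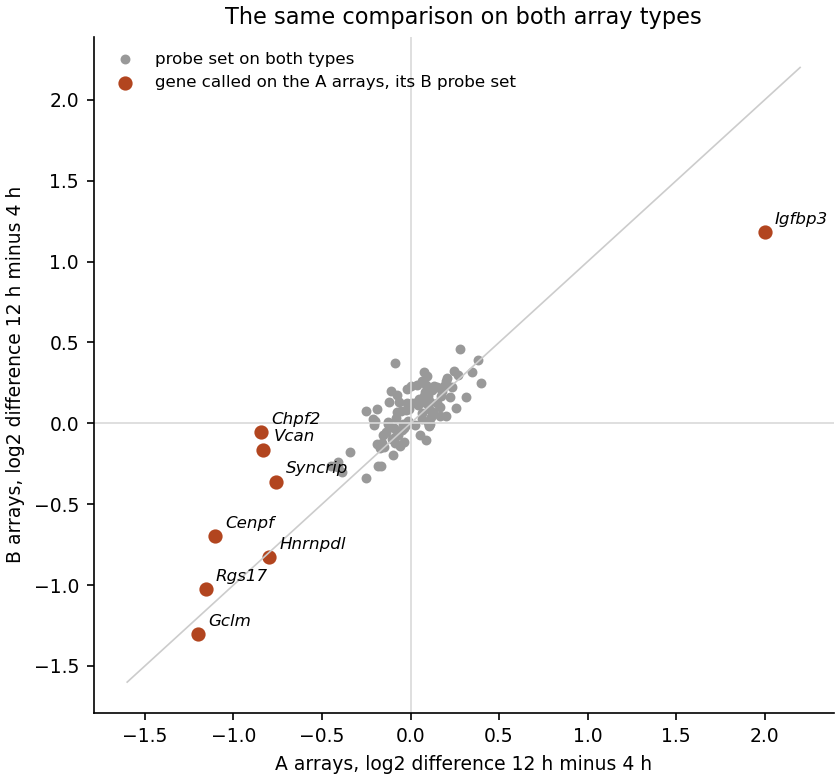
Log2 difference, 12 h minus 4 h, on the A arrays (horizontal) and the B arrays (vertical), for the 100 probe sets carried by both types (grey) and for 8 genes called on the A arrays with a B probe set of their own (red). All 8 genes lie on the side of 0 that the A arrays gave, from Gclm at -1.30 to Igfbp3 at 1.18 on the B arrays.

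Other B array genes came close to the threshold without passing. Vgll3, a cofactor of TEAD transcription factors, had 5121.8, 4796.9 and 4743.2 at 12 h, against 2480.9, 2470.7 and 3111.4 at 4 h (0.87 ± 0.15, adjusted p = 0.0733). Klhl30, a kelch protein counted in the Z-disc list, had 2885.4, 2881.1 and 2194.2 at 12 h, against 1015.8, 1454.6 and 1170.9 at 4 h (1.12 ± 0.20, adjusted p = 0.0733). Vegfc, a lymphatic growth factor, had 1016.5, 900.4 and 1027.6 at 12 h, against 1773.9, 2002.9 and 1522.4 at 4 h (-0.83 ± 0.14, adjusted p = 0.0733). The rule that named these B genes took only probe sets whose 12 h and 4 h values did not overlap. Their separation was therefore fixed by the choice. Such a gap was found in 14.2% of all B probe sets tested.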

How the data were processed

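Total RNA was measured on Affymetrix arrays with a standard protocol, per the labels. The authors deposited 1 linear intensity per probe set and array; the summary software is not given in the sources used here. All A columns share a trimmed mean of 500.2, which shows scaling array by array before deposit, and differences are relative to the array. The number of arrays limits precision. One B array at 0 h is titled EOM but has leg muscle as its source name; it entered the estimate of the spread and was kept.

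From the deposited intensities, log2(intensity + 16) was fitted over all 15 arrays of a type, 1 mean per time (R 4.3.3, limma 3.58.1, eBayes with its trend option), with the contrast 12 h minus 4 h. Left out were 64 control probe sets per type and those with a mean under the 40th percentile. Genes come from the platform annotation (A: 20393 probe sets with 1 symbol, 691 with several and 1606 with none, B: 14674, 245 and 7656). In lists the brightest A probe set stands for a gene, otherwise the brightest B one.

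The genes named are the 12 largest called A differences each way, up to 6 on the B arrays (filled to 4 by moderated statistic), called list members up to 5 and up to 3 leading others per list. The largest and the filled ones were taken only from probe sets whose 12 h and 4 h values did not overlap. The remaining called genes, and further list members given as values, were chosen after their values were seen. The comparison, its lists (47, with 1031 genes) and tests were chosen with earlier results of these data known. The model was tested on simulated data. Alternatives were other scalings, pseudocounts, filters, no trend, fewer arrays and the replicate number as a block. Figures were drawn with matplotlib 3.10.9.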

Additional observations from a re-analysis of the deposited data

How the results depend on the processing

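On the A arrays the count of 40 called probe sets became 20 with no filter, 22 with no intensity trend and 7 (all lower) with only the 4 h and 12 h arrays in the fit; leaving out single arrays gave 5 to 173. It ran from 35 to 44 under quantile normalization, median scaling, pseudocounts of 1 and 64 and a filter at the 60th percentile. On the B arrays the count of 1 became 7 with the 60th percentile filter, 5 with only the 4 h and 12 h arrays, 0 with no intensity trend (993 at an unadjusted p under 0.05), 0 to 1 with a 12 h or 4 h array left out and 2 without the 0 h array whose source name is leg muscle. The causes were not tested. With the replicate number as a block the A count was 37 (31 shared with the 40) and the B count 1; same-numbered 12 h and 4 h A arrays deviated with correlations of 0.258, -0.070 and -0.280, and B arrays with 0.018, -0.044 and -0.039. Not every array correlated best with its own number, so the numbers are not taken to pair the arrays. One probe set each of Cyp1a1, Cyp1b1, Gclc and Gclm kept the call in all 15 alternatives, and none of the 37 called probe sets named in the text or by the rule changed sign. Signs turned only for genes near 0 that were not called: Lpl (0.010 under quantile normalization, 0.0072 under median scaling) and, over the fits with an array left out, Lpl (-0.21 to 0.10), Krt8 (-0.10 to 0.35), Sgca (-0.0030 to 0.60), Egr2 (-0.10 to 0.43), Arnt (-0.12 to 0.29), Myog (-0.054 to 0.47), Myod1 (-0.090 to 0.25), Aldh3a1 (-0.49 to 0.13) and, on the B arrays, Epcam (-0.37 to 0.15). Probe sets near background carry the least certain differences, since no detection calls were used here.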

Other observations

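Immediate early genes, the transcription factors and regulators that respond first to stimulation, had none called of 26 (limma), with 5 higher and 0 lower at an unadjusted p under 0.05 and a median difference of 0.18. Fos had 261.8, 348.2 and 192.3 at 12 h, against 164.8, 116.6 and 163.5 at 4 h (0.76 ± 0.22, adjusted p = 0.173). In the circadian clock list none of 17 passed, 2 were higher and 2 lower at an unadjusted p under 0.05. The lower 2 were the nuclear receptors Nr1d1 (-0.66 ± 0.18, adjusted p = 0.147) and Nr1d2 (-0.61 ± 0.21, adjusted p = 0.262), and neither overlapped between the times. Of all genes 10.2% had an unadjusted p under 0.05, and 16.2% did not overlap between the times. In the amino acid stress list, Chac1, a glutathione-degrading enzyme, had 611.6, 635.2 and 630.4 at 12 h, against 403.4, 334.4 and 399.9 at 4 h (0.70 ± 0.18, adjusted p = 0.111). Of 31 proteasome subunits none was called, with 0 at an unadjusted p under 0.05 and a median of 0.0026.

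Members of other cell types gave few values. Selp, an endothelial and platelet adhesion molecule, had 10.5, 103.9 and 65 at 12 h, against 224.1, 133 and 220.2 at 4 h (-1.68 ± 0.42, adjusted p = 0.111), while the endothelial genes Kdr (0.36) and Flt1 (-0.34) overlapped. Dcx, a microtubule protein of young neurons, varied most within a time, with 235.6, 168.3 and 667.1 at 12 h, against 33.1, 342.5 and 31.3 at 4 h (1.75 ± 0.78, adjusted p = 0.403), so the array highest at 12 h was replicate 3 and the one highest at 4 h was replicate 2. Those are the arrays that stood apart for muscle and mitosis genes. Its relation to them was not tested.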
